A study of Mus musculus with 12 samples.

Results

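The genes Sp1 to Sp9 encode a family of zinc finger transcription factors. All 9 were examined for binding of MOF (KAT8), the lysine acetyltransferase that deposits acetylation on lysine 16 of histone H4, in visceral white adipose tissue (WAT). The 9 genes were drawn from 21938 protein-coding genes of the GENCODE M21 annotation by name, and each was given the peaks that touched its body or lay within 3 kb of any of its annotated start sites. The family was selected on its peaks in both lists, which were already known (above all the fold enrichment at Sp9), so the levels and counts at its members are a description and carry no test.

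Chromatin immunoprecipitation and sequencing (ChIP-seq) was performed on WAT of C57BL/6 mice at 8 weeks of age on a standard diet. The labels give 12 libraries in 6 groups of 2, namely input DNA, H3 ChIP and MOF ChIP from wild type (Mof+/+) and Mof heterozygous (Mof+/-) animals. The study's reporting summary likewise names 2 littermates of either genotype, whereas the series' own design text has 3 Mof+/- and 2 control animals. The heterozygous animals kept 1 intact Mof allele, so the comparison is one of reduced dose and not of absence. Binding was read from 2 deposited peak lists, 1 per genotype, with 19773 Mof+/+ and 731 Mof+/- peaks. Signal tracks and reads of single libraries were not analysed here, so every difference between the genotypes is given without a measure of animal variation. The WAT is bulk tissue, in which a smaller share of cells with MOF on a gene and less MOF per cell cannot be told apart. By the rule used for the Sp genes, 44.5% of all protein-coding genes had a Mof+/+ peak and 1.89% a Mof+/- peak. Of 8 adipocyte marker genes, 7 had a Mof+/+ peak and the exception was Lep. All 5 B cell markers also had one, as did 3 of 4 T cell markers, 2 of 4 fibroblast and progenitor markers and 1 of 4 macrophage, endothelial and mesothelial markers each. In the Mof+/- list only Pax5 (B cell), Pdgfra (progenitor) and Wt1 (mesothelial) had a peak among all these markers. The part of these cell types in the peaks of the Sp genes was not tested.

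Sp proteins bind GC boxes, short GC-rich elements of the form GGGCGG found in many promoters, through a set of zinc fingers at their C terminus. Sp1, Sp2, Sp3 and Sp4 are widely expressed, with Sp1 the founding activator of GC-rich promoters, Sp3 acting as activator or repressor, and Sp4 most abundant in the nervous system. Sp5 to Sp9 are tissue-restricted genes of development. Sp5 is a target of Wnt signalling, Sp6 (epiprofin) acts in teeth and hair follicles, Sp7 (osterix) is the osteoblast factor, and Sp8 and Sp9 act in limb bud outgrowth and in interneurons of the forebrain. Each broad gene has a restricted gene as its neighbour on the chromosome. The nearest Hox gene was Hoxc13 for Sp1 and Sp7 (0.485 and 0.554 Mb), Hoxb1 for Sp2 and Sp6 (0.585 and 0.645 Mb) and Hoxd13 for Sp3, Sp9 and Sp5 (1.69, 1.38 and 4.19 Mb), while Sp4 and Sp8 lie on a chromosome without one. Start sites were 38961 bp apart for Sp1 and Sp7 on chromosome 15, 30435 bp for Sp2 and Sp6 on chromosome 11, 291479 bp for Sp3 and Sp9 on chromosome 2, and 544889 bp for Sp4 and Sp8 on chromosome 12. Sp5 lay 2466161 bp from Sp3 on chromosome 2. RNA was not measured in these libraries, so whether a member was expressed in this WAT is not given by them.

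Of the 9 members, 7 had a Mof+/+ peak and only 3, Sp1, Sp6 and Sp9, had a Mof+/- peak. The shares of all protein-coding genes were 44.5% and 1.89%, as above. The broad genes all had Mof+/+ binding at or near a start site, while among the restricted genes Sp5 and Sp7 had no peak in either list and Sp9 lay under 1 of the widest peaks in the genome. The 9 members held 19 Mof+/+ peaks with a median fold enrichment of 3.31, from 2.48 at Sp2 and Sp6 to 10.1 at Sp9, against a median of 3.40 for the whole list. Fold enrichment is the ratio of fragments at the summit of a peak to the local input background, with 1 added to both. The Mof+/+ list admitted weaker peaks (weakest −log10 p-value 3.25, against 4.72 in Mof+/-), so fold enrichments of the lists are not directly comparable. The 7 Mof+/- peaks ran from 3.99 to 9.31, and 5 of them were at Sp9. All 7 overlapped a Mof+/+ peak, against 84.8% of the 716 Mof+/- peaks on assembled chromosomes. At 1 of the 7, in Sp6, the Mof+/- summit lay outside the Mof+/+ peak, and 0 shared at least 50% of both peaks. The 5 at Sp9 lay in a single Mof+/+ peak of 13812 bp, far wider than any of them. Shares of the whole Mof+/- list by these stricter rules were not computed. Within 1 kb of a start site only, 2 Mof+/- peaks were left and both overlapped.

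The sequences at the summits show what kind of DNA these peaks covered. Those chosen are summits of the peaks that overlapped between the lists, at Sp9, Sp1 and Sp6 (where the Mof+/- summit lay outside the Mof+/+ peak, so both summits are shown), beside the coding exons of Sp9 and Sp6, the GC-rich peaks at Sp1 and Sp4 that were in the Mof+/+ list alone, and the region upstream of Sp5, which had no peak. Each is 101 bases centred on the summit, or for Sp5 the 200 bases before the start site, read from GRCm38 5′ to 3′ on the strand of the gene with CpG dinucleotides in capitals.
Sp9 intron, both lists, chr2:73272763-73272863, plus strand: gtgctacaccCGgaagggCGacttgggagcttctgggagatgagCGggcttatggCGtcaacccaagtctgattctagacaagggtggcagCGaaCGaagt
Sp9 coding exon, Mof+/- summit, chr2:73274241-73274341, plus strand: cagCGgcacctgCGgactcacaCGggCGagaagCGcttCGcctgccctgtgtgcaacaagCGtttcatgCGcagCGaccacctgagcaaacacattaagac
Sp1 upstream, Mof+/+ summit, chr15:102405217-102405317, plus strand: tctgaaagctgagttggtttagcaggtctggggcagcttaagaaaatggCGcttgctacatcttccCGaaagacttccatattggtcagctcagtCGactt
Sp1 upstream, Mof+/- summit, chr15:102405418-102405518, plus strand: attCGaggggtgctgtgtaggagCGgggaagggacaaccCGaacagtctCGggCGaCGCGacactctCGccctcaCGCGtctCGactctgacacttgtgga
Sp1 start, Mof+/+ list alone, chr15:102406579-102406679, plus strand: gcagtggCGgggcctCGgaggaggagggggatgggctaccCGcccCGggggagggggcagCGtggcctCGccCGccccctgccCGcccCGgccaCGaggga
Sp4 upstream, Mof+/+ list alone, chr12:118301716-118301816, minus strand: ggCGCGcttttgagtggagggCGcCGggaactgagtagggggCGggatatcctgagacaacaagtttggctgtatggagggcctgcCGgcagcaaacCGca
Sp6 intron, Mof+/- summit, chr11:97017326-97017426, plus strand: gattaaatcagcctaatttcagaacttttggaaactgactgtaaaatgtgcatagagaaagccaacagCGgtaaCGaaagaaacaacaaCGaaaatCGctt
Sp6 intron, Mof+/+ summit, chr11:97017795-97017895, plus strand: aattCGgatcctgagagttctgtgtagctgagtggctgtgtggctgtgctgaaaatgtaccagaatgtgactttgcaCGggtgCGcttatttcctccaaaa
Sp6 coding exon, Mof+/+ list alone, chr11:97022117-97022217, plus strand: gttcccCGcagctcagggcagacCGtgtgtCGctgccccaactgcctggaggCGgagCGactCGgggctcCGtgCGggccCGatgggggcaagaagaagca
Sp5 upstream, no peak, chr2:70474723-70474922, plus strand: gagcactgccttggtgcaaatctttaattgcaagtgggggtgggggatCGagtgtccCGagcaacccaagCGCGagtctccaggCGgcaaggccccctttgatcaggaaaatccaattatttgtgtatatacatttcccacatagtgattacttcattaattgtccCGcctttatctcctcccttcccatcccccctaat

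The summits did not share 1 kind of sequence. The GC content of these windows was 82.2% at the Sp1 start peak, which held 3 GC boxes and 10 CpGs, and 36.6% at the Sp6 Mof+/- summit, which held 4 CpGs and no GC box. The Mof+/+ summit of the overlapping Sp6 peak was at 47.5% GC with 3 CpGs. The shared Sp9 summit was at 57.4% GC with 6 CpGs and no GC box. Of the Sp9 Mof+/- summits not shown, the one in the UTR was at 35.6% GC with 2 CpGs. The intronic ones were at 57.4% with 6 CpGs and 29.7% with 3. At Sp1 the Mof+/- summit held 11 CpGs and the Mof+/+ summit in the same upstream region held 3.

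**Figure D1:**
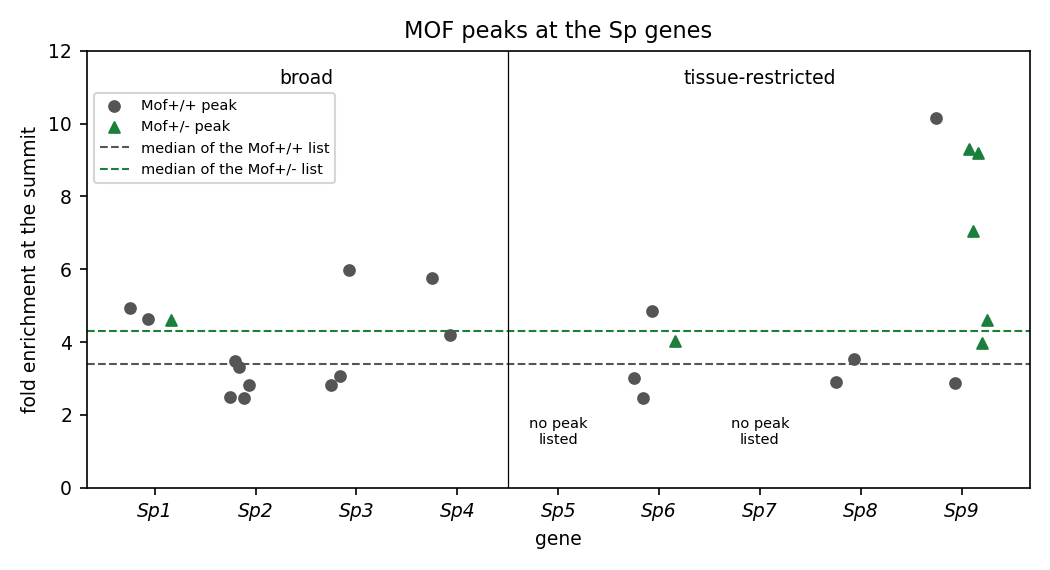
Fold enrichment at the summit (vertical axis, ratio to input background) of every peak given to each Sp gene (horizontal axis), with Mof+/+ peaks as grey circles and Mof+/- peaks as green triangles, spread sideways in order of position. Dashed lines are the medians of the 2 lists, 3.40 and 4.29; the Sp9 points reach 10.1 and 9.31, the other members stay at or below 5.97, and Sp5 and Sp7 have none.

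Sp1 (chromosome 15, 102406143 to 102436404, plus strand) was the broad gene with binding in both lists. A Mof+/+ peak of 1653 bp ended 586 bp upstream of the first start site (102403905 to 102405557, fold enrichment 4.94, 28 fragments, 95% Poisson interval 18.6 to 40.5). A further Mof+/+ peak of 479 bp (102406273 to 102406751, fold enrichment 4.65) began 130 bp downstream of that site and covered 2 of the 6 annotated start sites of Sp1, with its summit in an intron. The first start site thus lay in a gap between the peaks. The Mof+/- list held 1 peak, from 102405081 to 102405521 (fold enrichment 4.60, 14 fragments, interval 7.65 to 23.5). It lay inside the upstream Mof+/+ peak, 622 bp from the first start site, and nothing was listed in Mof+/- for the peak over the start sites. Poisson intervals here cover counting error only, since the fragments of a list come from libraries whose combination is not stated.

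Sp2 (chromosome 11, 96953341 to 96982959, minus strand) had the most Mof+/+ peaks of the family and the weakest set, 5 peaks with fold enrichments of 2.48 to 3.48, all with intronic summits. None covered any of its 3 start sites. The highest in fragments (96976569 to 96977675, 23 fragments, fold enrichment 3.30) lay 36 bp downstream of the middle start site, and another (96978175 to 96978492, fold enrichment 2.48) lay 464 bp upstream of it, so that this start site, too, sat in a gap between peaks. The peak from 96962920 to 96963327 (fold enrichment 2.49) also lay in an intron of the gene D030028A08Rik and cannot be given to Sp2 alone. The nearest Mof+/- peak to a start site of Sp2 was 34270 bp away, the one in Sp6.

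Sp3 (chromosome 2, 72936427 to 72980446, minus strand) carried the widest and highest peak of the broad genes. This Mof+/+ peak of 2634 bp (72978552 to 72981185, fold enrichment 5.97, 26 fragments, interval 17.0 to 38.1) covered 3 of the 5 start sites and had 113 CpGs per kb (Mof+/+ list median 24.5). It is shared with the antisense gene Sp3os, whose start site lies under it, and by position with the predicted gene Gm11084, so it cannot be assigned to Sp3 alone. The remaining pair of Mof+/+ peaks at Sp3 were intronic and weak (fold enrichments of 2.82 and 3.07), with 12 and 14 fragments. No Mof+/- peak lay at Sp3, and the nearest was 287716 bp away, upstream of Sp9.

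Sp4 (chromosome 12, 118234933 to 118301440, minus strand) is the longest gene of the family at 66508 bp, and its Mof+/+ binding was confined to the DNA upstream of its start sites. The nearer peak (118301649 to 118302002, 354 bp, fold enrichment 5.75, 25 fragments, interval 16.2 to 36.9) lay 209 bp upstream and the farther (118302323 to 118303090, 768 bp, fold enrichment 4.20, 18 fragments, interval 10.7 to 28.5) lay 883 bp upstream. None of the 3 start sites was under a peak. Peaks covered 1.61% of the Sp4 window, the lowest share among the 7 members with a peak. No Mof+/- peak was listed, and the nearest was 536619 bp away, upstream of Sp8.

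Among the restricted genes, Sp5 and Sp7 were without a peak. Sp5 (chromosome 2, 70474923 to 70477729, plus strand) was 84048 bp from the nearest Mof+/+ peak, a peak of fold enrichment 2.59 nearest to Gad1, and 367228 bp from the nearest Mof+/- peak. Sp7 (chromosome 15, 102356606 to 102367182, minus strand) was 10271 bp from the nearest Mof+/+ peak (fold enrichment 3.10) and 37899 bp from the nearest Mof+/- peak, the one upstream of its neighbour Sp1. A gene without a peak had no enrichment past the caller's threshold at this depth, which does not show that MOF was absent from it.

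Sp6 (chromosome 11, 97013394 to 97024734, plus strand) had 3 Mof+/+ peaks and 1 Mof+/- peak. None was at the first of its 2 start sites. The second, internal start site was under a Mof+/+ peak of 697 bp (97018421 to 97019117, fold enrichment 2.48). Upstream of it a Mof+/+ peak of 646 bp (97017387 to 97018032, fold enrichment 3.02, 21 fragments, interval 13.0 to 32.1) overlapped the Mof+/- peak (97017229 to 97017665, fold enrichment 4.04, 13 fragments, interval 6.92 to 22.2), with both summits in an intron. The highest Mof+/+ peak at Sp6 had its summit in the coding sequence (97021677 to 97022564, fold enrichment 4.87), 2944 bp from the nearest start site, and had no Mof+/- counterpart. The Mof+/- peak of Sp6 was not kept with q-values limited to 0.001, or within 1 kb of a start site only.

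Sp8 (chromosome 12, 118846329 to 118852576, plus strand) had 2 weak Mof+/+ peaks. The peak of 1225 bp (118846926 to 118848150, fold enrichment 2.90, 14 fragments) covered the second start site, and the peak of 327 bp (118851195 to 118851521, fold enrichment 3.54, 15 fragments) had its summit in a UTR. No Mof+/- peak met the rule. One of 262 bp (118838059 to 118838320, fold enrichment 3.99) lay 8009 bp upstream of the first start site, where the Mof+/+ list had no overlapping peak.

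**Figure D2:**
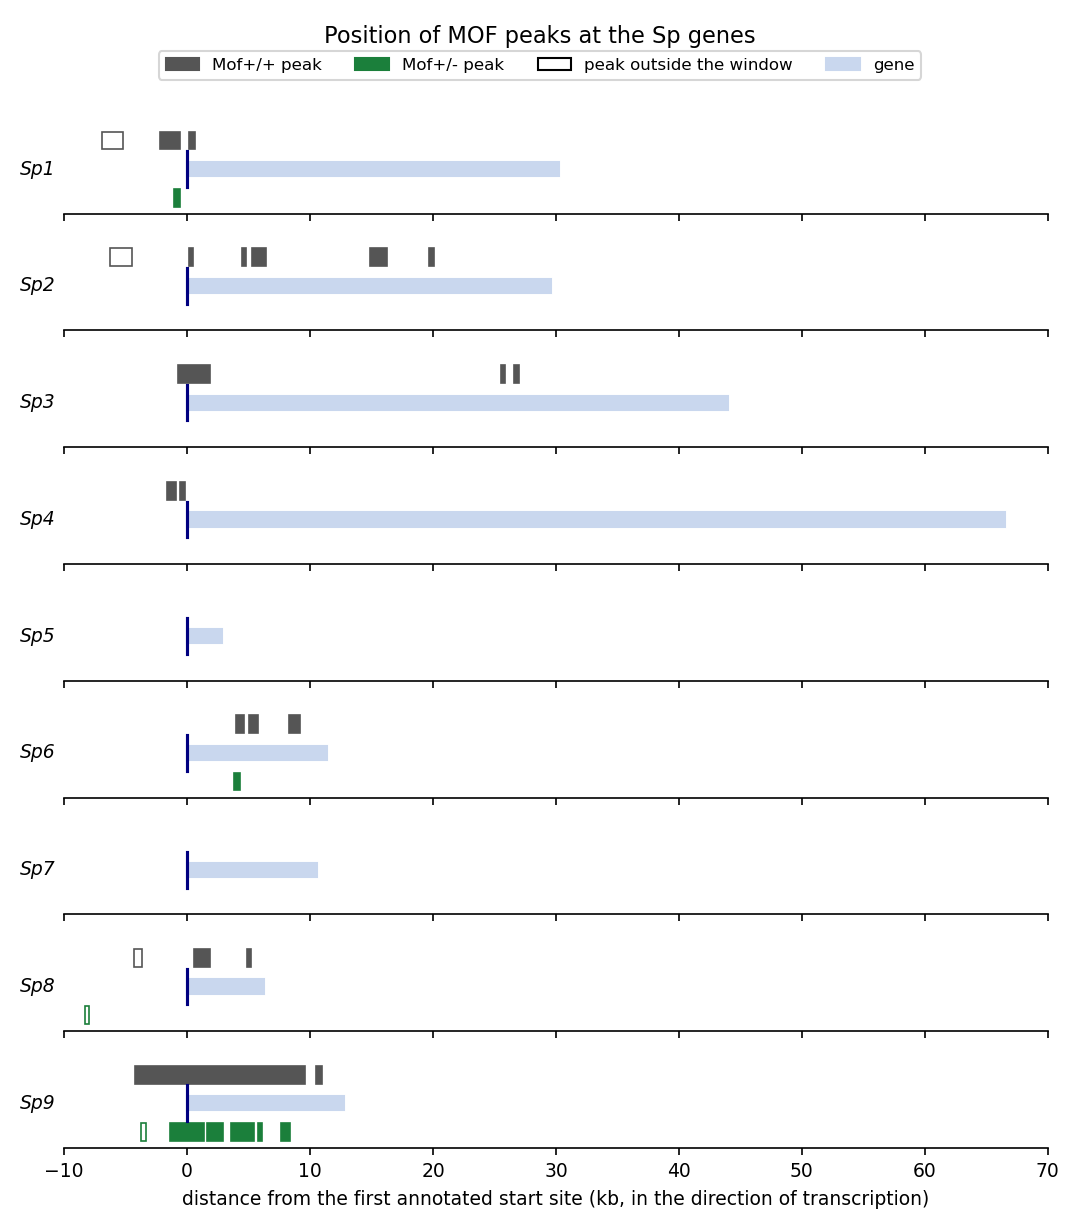
Position of Mof+/+ (grey) and Mof+/- (green) peaks at each Sp gene in kb from its first annotated start site (vertical line), read in the direction of transcription, with gene bodies in pale blue and open boxes for peaks within 10 kb of a start site but outside the rule. The Sp9 peaks span the start site and most of the gene, those of Sp1 and Sp4 and the widest of Sp3 lie at the start, and Sp5 and Sp7 are empty.

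Sp9 (chromosome 2, 73271925 to 73284706, plus strand) stood apart from the other members in both lists. A single Mof+/+ peak of 13812 bp ran from 73267713 to 73281524, from 4212 bp upstream of the start site to 3182 bp before the end of the gene. It was the second widest of the Mof+/+ list, 22.7 times the median width of 609 bp, and ranked 12 by fold enrichment (10.1, 45 fragments, interval 32.8 to 60.2). A separate peak of 453 bp followed in the last part of the gene (73282437 to 73282889, fold enrichment 2.88, 12 fragments). The Mof+/+ peaks thus covered 13053 bp, or 82.7%, of the Sp9 window, while the next most covered member, Sp8, reached 16.8%.

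The lists differ in lowest background (3.52 fragments in Mof+/+, 2.26 in Mof+/-) and in weakest −log10 p-value (3.25 and 4.72). The part of this in the number and extent of the peaks was not tested. In the Mof+/- list the region of the wide Mof+/+ peak held 6 separate peaks, of which 5 met the rule. From 5′ to 3′ the first of these 5 covered the start site (73270547 to 73273270, 2724 bp, fold enrichment 9.31, 31 fragments, interval 21.1 to 44.0). The next had its summit in the coding part of the large second exon (73273528 to 73274802, 1275 bp, fold enrichment 7.05, 22 fragments). The third lay over the 3′ UTR portion of that exon (73275469 to 73277360, 1892 bp, fold enrichment 9.20, 29 fragments, interval 19.4 to 41.7). These ranked 3, 19 and 4 of the Mof+/- list by fold enrichment. The last pair were intronic, with fold enrichments of 3.99 and 4.60 and 12 and 14 fragments. The sixth peak (73268162 to 73268593, fold enrichment 3.22) lay 3332 bp upstream of the start site, just outside the rule.

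All 6 Mof+/- peaks lay inside the wide Mof+/+ peak and covered 52.5% of it. The highest summits of both lists were 1 bp apart, 888 bp from the start site in Mof+/+ and 889 bp in Mof+/-. The fold enrichment there was 0.918 of the Mof+/+ value in the Mof+/- list. Scaled by the ratio of the lowest backgrounds of the lists (0.642), the 45 Mof+/+ fragments correspond to 28.9 (interval 21.1 to 38.7), and the Mof+/- list had 31. The family was chosen with these values known, so they describe the summit and test no difference between the genotypes.

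**Figure D3:**
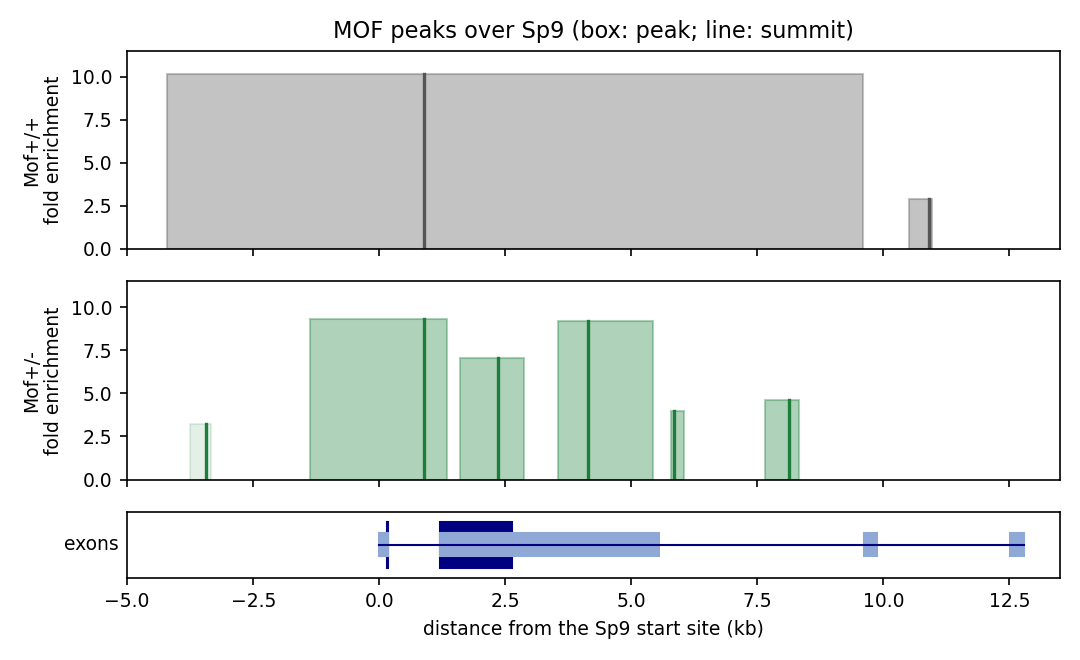
MOF peaks along Sp9 in kb from its start site, with box width the extent of a peak, box height its fold enrichment at the summit and a vertical line at the summit; the pale green box is the Mof+/- peak outside the rule, and the lowest track shows exons with coding parts in dark blue. The Mof+/+ peak of 13812 bp (grey) encloses 6 Mof+/- peaks (green), whose highest summit is 1 bp from its own.

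Against all protein-coding genes, the 6825 bp of Sp9 under Mof+/- peaks ranked 2 of 21938, where the median of the 415 genes with such a peak was 493 bp. Its 13053 bp under Mof+/+ peaks ranked 71, against a median of 1048 bp over the 9773 genes with one. Sp1 (441 bp) and Sp6 (437 bp) were below the Mof+/- median. The 5 genes outside the family with the pair of covered lengths nearest to Sp9 (Euclidean distance of log2(bases + 1) over the 2 lists) were Irx5 (0.436, 9904 and 6031 bp), Osr2 (0.476, 9455 and 6366 bp), Shox2 (0.655, 11959 and 4371 bp), Spag6 (0.766, 8162 and 5329 bp) and Hoxa9 (0.842, 8960 and 4369 bp), each with the Mof+/+ length first. Irx5, Osr2, Shox2 and Hoxa9 encode transcription factors of development, and Spag6 encodes a protein of the axoneme of cilia and sperm.

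**Figure D4:**
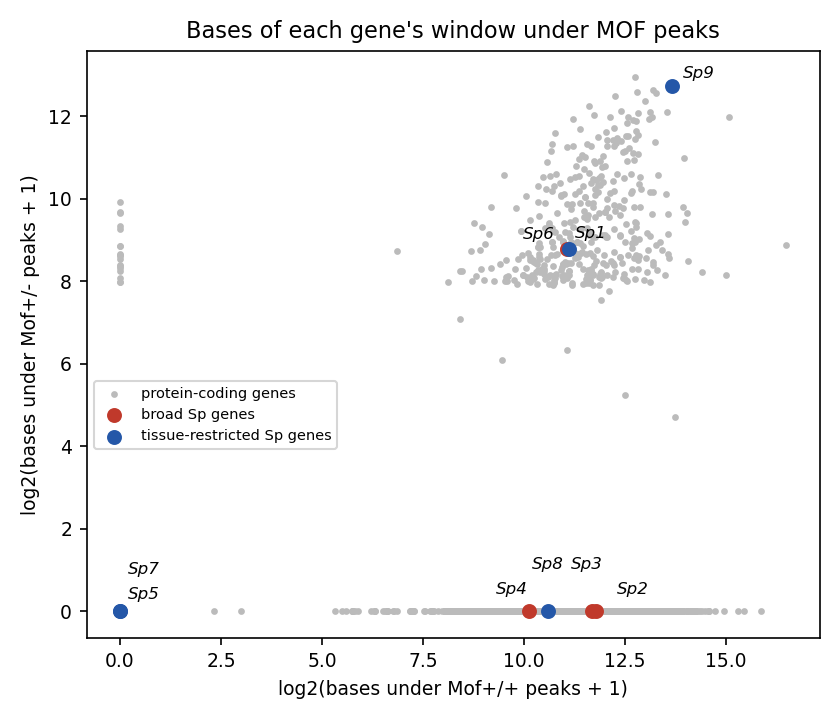
Each point is a protein-coding gene with a peak in at least 1 list, placed by log2(bases + 1) of its window under Mof+/+ peaks (horizontal) and under Mof+/- peaks (vertical), with broad Sp genes in red and tissue-restricted Sp genes in blue; Sp5 and Sp7, with no base in either list, are drawn at the origin. Sp9 sits at the upper right with 13053 and 6825 bp, Sp1 and Sp6 lie among the genes with a Mof+/- peak near its median length, and the other members lie on the lower axis.

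The broad and the restricted genes are described side by side. The 4 broad genes held 12 Mof+/+ peaks with a median fold enrichment of 3.39 (2.48 to 5.97) and 10088 bp covered. The 5 restricted genes held 7 peaks with a median of 3.02 (2.48 to 10.1) and 16836 bp, of which all but 3783 bp was at Sp9. The median length covered per gene was 2708 bp for the broad and 1552 bp for the restricted genes, or 776 bp without Sp9. Without Sp9, the restricted genes had 5 Mof+/+ peaks with fold enrichments of 2.48 to 4.87, a narrower range than that of the broad genes, and 1 Mof+/- peak of 437 bp, beside 1 Mof+/- peak of 441 bp at the broad genes. A Mof+/+ peak covered a start site of Sp1 and Sp3 among the broad genes, and of Sp6, Sp8 and Sp9 among the restricted genes. The share of all protein-coding genes with such a peak was not computed, so this is no comparison with the genome. With 4 genes against 5, and peaks of 1 gene sharing their source, no difference between the classes was tested.

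Gene length and base composition moved with the classes. The broad genes had a median length of 37140 bp and the restricted genes 10580 bp, so that a broad gene offered more body in which a peak could be counted. In the 1 kb round their most CpG-rich start site the broad genes had 81 to 142 CpGs and the restricted genes 22 to 80. Sp3, with 142, was above 99.1% of protein-coding genes, and Sp7, with 22, was above 30.6%. Sp9 had 52 CpGs and Sp5 had 61. The part of length and CpG content in the counts was not tested. The chromatin was cut with CviKI-1 (sites of the form NGCN with a purine first and a pyrimidine last), and the density of these sites was 20.7 per kb in the wide Sp9 peak, near the Mof+/+ median of 21.2, and 11.8 to 32.2 per kb in the Mof+/- peaks of the family, where the Mof+/- median was 13.4.

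The GC box to which Sp proteins themselves bind was looked for in RefSeq promoters (GRCm38, 250 bases before to 50 after a start), as GGGCGG on either strand. The table held 12 promoters of 7 members, and none for Sp6 and Sp7. Of the 12, 7 held at least 1 GC box, beside 35.7% of all 32851 promoters. The promoter of Sp4 had 5, that of Sp1 4, those of Sp3 5 and 2, the middle promoter of Sp2 2, and the second of Sp8 and that of Sp9 1 each, while Sp5 had none. All 7 promoters with a GC box touched a Mof+/+ peak, and of the 5 without one only the third of Sp8 did. The 7 had 19 to 42 CpGs and the 5 had 2 to 10, so GC box and CpG content cannot be told apart here. Over all promoters of the table, 44.95% of those with a GC box and 11.7% of those without touched a Mof+/+ peak. Promoters of 1 gene can share a peak, as both of Sp3 did, so the 12 are not independent. These matches are letters in a window and do not show that an Sp protein was bound.

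Whether a Mof+/+ peak could have been seen in the Mof+/- list depends on depth. Input background at its lowest was 3.52 fragments in Mof+/+ and 2.26 in Mof+/-, and at the lowest Mof+/- background a peak had to have 11 fragments, a fold enrichment of 3.68, to reach the weakest p-value of that list. Of the 19 Mof+/+ peaks at Sp genes, 7 had enough fragments after scaling to the Mof+/- background, and 2 of these, the upstream peak of Sp1 and the wide peak of Sp9, overlapped a Mof+/- peak. Over the whole Mof+/+ list 5957 peaks (30.1%) had enough, and 350 of them (5.88%) overlapped a Mof+/- peak. The other 5 were the start peak of Sp1, the promoter peak of Sp3, both peaks of Sp4 and the coding-exon peak of Sp6. Of the 12 with too few, 1 at Sp6 nevertheless overlapped a Mof+/- peak.

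When counting error was allowed for, only the wide Sp9 peak had a lower limit (21.1 scaled fragments) above the 11 needed. The promoter peak of Sp3 came closest among those without a Mof+/- peak, with 16.7 scaled fragments and a lower limit of 10.9, followed by the nearer peak of Sp4 with 16.1 and 10.4. For these and the other Mof+/+ peaks without a Mof+/- peak, the counting interval reached below the fragments needed, so a missing Mof+/- peak there leaves the level of MOF uncertain. Over the whole Mof+/+ list 661 peaks (3.34%) had such a lower limit, and 157 of them (23.8%) overlapped a Mof+/- peak.

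**Figure D5:**
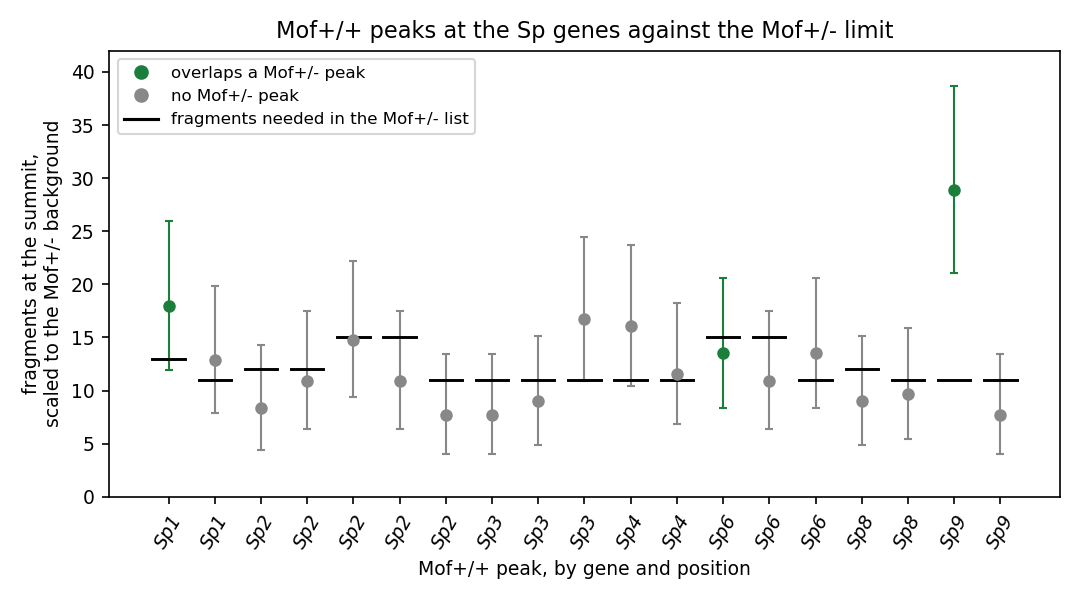
Fragments at the summit of the 19 Mof+/+ peaks of the Sp genes, scaled to the Mof+/- background (points, with 95% Poisson intervals as bars), and the fragments a peak needed to enter the Mof+/- list at that background (black lines), with peaks that overlap a Mof+/- peak in green. The interval of the wide Sp9 peak, 21.1 to 38.7, is the only one wholly above its line.

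The Klf genes, the other branch of this zinc finger family, share the DNA-binding domain and bind related GC-rich and CACCC elements. Of Klf1 to Klf17, 12 had a Mof+/+ peak, with 42 peaks in all, and 0 had a Mof+/- peak. The median length covered in Mof+/+ was 1528 bp and the highest was 14513 bp. The background shares of 44.5% and 1.89% apply here too, and at 1.89% a list of this length need not hold any gene with a Mof+/- peak. Judged by its highest Mof+/+ peak and chosen after the values were seen, Klf2, a factor of endothelial and lymphocyte quiescence, had a fold enrichment of 10.6 (chromosome 8, 72318609 to 72324111, 5503 bp), and its 47 fragments scale to 30.2 (interval 22.2 to 40.1) against the 11 needed. Klf3, Klf7 and Klf13 also had lower limits above the 11 needed, of 15.7, 14.1 and 12.5 scaled fragments, and that of Klf9 was 13.0 against 13 needed. No Mof+/- peak was listed at any of these genes. Over the whole Mof+/+ list, 661 peaks had a lower limit that reached the fragments needed, and 157 of them (23.8%) overlapped a Mof+/- peak.

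The rule has an edge at 3 kb from a start site. It decided only peaks outside a gene body, and the farthest of these inside it was a Mof+/+ peak of Sp4 at 883 bp. Just outside were the Mof+/- peak at 3332 bp from Sp9, and Mof+/+ peaks at 3676 bp from Sp8 (fold enrichment 2.90), 4468 bp from Sp2 (4.20) and 5180 bp from Sp1 (5.53, higher than either Sp1 peak inside).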

How the data were processed

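MOF ChIP, H3 ChIP and input libraries (2 each per genotype, per the labels) were mapped by the authors to GRCm38 with snakePipes 2.1.2, and peaks were called with MACS2 2.1.1.20160309.3 against input at a q-value threshold of 0.1. The methods also describe merging of peaks within 1000 bp with bedtools, but neighbouring peaks closer than that remain in both lists (at Sp6 in Mof+/+ and at Sp9 in Mof+/-), which were therefore used as unmerged. Merging them was an alternative. In the deposited lists, fold enrichment is a ratio made by the authors' caller, and the deposited −log10 p-value, −log10 q-value and summit offset come from it too. Of the value columns, 2 (1 per list) were not used. Whether replicates were pooled for a list is not given in the sources used here. The Mof+/- list was assigned by its name. The other list names no genotype. It was taken as Mof+/+, the only other MOF ChIP group, and its 19753 peaks on assembled chromosomes are the number the paper gives for Mof+/+.

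Peaks were read as 1-based intervals and matched to GENCODE M21 genes (GRCm38.p6) in Python 3.11.15 with numpy 2.4.6, pandas 2.3.3, scipy 1.17.1, pysam 0.24.0 and matplotlib 3.10.9. Any overlap of 1 bp counted as shared. Fragments and background at each summit were solved from fold and p-value, which succeeded within 0.002 of the −log10 p-value for 99.99% of Mof+/+ and 99.863% of Mof+/- peaks. This step was tested on values simulated by its own formula, and the overlap and coverage counts on random intervals. The assignment of peaks to annotated genes was not tested in this way. The median peak had 16 fragments in Mof+/+ and 14 in Mof+/-, and read totals are not used here. Intervals are exact Poisson intervals at 95%.

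The members and lists were chosen with earlier results of these data known. The text names every Sp gene, Klf genes by count (those named were chosen after their values were seen), and the 5 genes most like the member with the most Mof+/- bases. Neither reads nor signal of any library, H3 included, were analysed here. No test was run, because the files used here hold 1 list per genotype and no value per library, although the labels give 2 libraries per group. Alternatives varied the q-value or p-value limit, the window, the gene assignment, merging and the overlap rule.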

Additional observations from a re-analysis of the deposited data

How the results depend on the processing

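No paired analysis was possible because the peak lists used here, 1 for a genotype, have no replicate columns, and no replicate was left out for the same reason. Data of single libraries were not analysed here. Of 83 values recomputed under 13 alternative settings, 69 stayed within 1.5 times the value reported. With q-values limited to 0.001, Mof+/+ peaks at Sp1 to Sp4 fell from 12 to 7, those at Sp5 to Sp9 from 7 to 4, and the restricted genes with a Mof+/- peak from 2 to 1. The gene lost was Sp6. A q-value limit of 0.01 and a single p-value limit for both lists also left 4 Mof+/+ peaks at Sp5 to Sp9, and 8 at Sp1 to Sp4. Within 1 kb of a start site only, there were 4 Mof+/+ and 1 Mof+/- peaks at Sp5 to Sp9, 1 restricted gene with a Mof+/- peak, and 2 overlapping Mof+/- peaks in the family. Within 3 kb of a start site only, 3 Mof+/- peaks remained at Sp5 to Sp9 and 4 in the family overlapped. Merging peaks within 1000 bp gave 3 and 4, and took the Mof+/+ peaks from 12 to 8 at Sp1 to Sp4 and from 7 to 5 at Sp5 to Sp9. With at least 50% of both peaks shared, 0 of the 7 Mof+/- peaks overlapped, since each covers less than that share of its Mof+/+ peak. Apart from the settings' own construction, the cause was not tested. The count of Sp genes with a Mof+/+ peak stayed within 1.5 times of 7 under every setting that was run. With 12 to 45 fragments per peak at these genes, depth limits what a missing Mof+/- peak shows.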
